A study of Homo sapiens with 4 samples.

Results

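The 10 genes described here had ribosome footprint counts far higher or far lower in 1 library than in the related libraries of the series: DUXAP10, ZNFX1, KAT7, RASD1, CCDC151, SERPINB10, GSDMB, LGALS4, CREG2 and IGSF22. They were chosen by name from their counts in these same 4 libraries, with no numeric threshold, so their levels are given as a description and without a test. All 10 were found, each as 1 transcript, among 16292 transcripts listed in at least 1 library, and all 10 were among the 9612 with a mean of at least 5 RPKM. SERPINB10 reached that mean only through its highest library. RPKM is a read count scaled to coding length and to the total reads of the library.

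Footprints (the mRNA pieces that ribosomes protect) were sequenced from the embryonic kidney line HEK293, an established human cell line, in 4 groups of 1 library. These were wild type and RPL4 mutant cells, each without and with the macrolide antibiotic erythromycin. RPL4 is a large-subunit ribosomal protein that lines the exit tunnel for the growing protein chain. The treatment protocol, common to the 4 libraries, names stable lines that carry GFP, wild type RPL4 or a loop-deleted RPL4, infected with a short hairpin RNA virus against RPL4 or a scrambled one. The labels tie none of these lines or viruses to a library and give no drug dose, and they do not say which of cycloheximide or lactimidomycin a library received.

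In ribosome profiling each read marks 1 ribosome at 1 place on an mRNA, and the reads of a transcript are summed over its coding sequence. The sum therefore rises with the amount of mRNA, with the rate of initiation and with slow or halted ribosomes. It also rises when many copies of 1 fragment, from the mRNA itself or from a look-alike RNA, are assigned to that transcript. The deposited values hold 1 number per transcript, so the position of the reads within each gene was not analysed here.

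Where a coding sequence begins decides where initiating ribosomes are caught, so the start region of each gene is shown, as read from the GENCODE 29 transcripts (GRCh38). Each line gives 12 bases before the start codon, the start codon in capitals and 30 bases after it, 5′ to 3′ on the mRNA strand.
DUXAP10: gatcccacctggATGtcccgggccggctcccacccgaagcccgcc
ZNFX1: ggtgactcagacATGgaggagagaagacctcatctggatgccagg
KAT7: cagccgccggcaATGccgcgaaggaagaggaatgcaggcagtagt
RASD1: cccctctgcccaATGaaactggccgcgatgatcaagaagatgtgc
CCDC151: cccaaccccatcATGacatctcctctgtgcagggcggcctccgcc
SERPINB10: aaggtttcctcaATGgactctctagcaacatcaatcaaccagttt
GSDMB: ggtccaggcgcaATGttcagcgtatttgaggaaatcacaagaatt
LGALS4: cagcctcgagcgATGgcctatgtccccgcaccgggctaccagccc
CREG2: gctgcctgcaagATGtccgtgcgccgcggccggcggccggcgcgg
IGSF22: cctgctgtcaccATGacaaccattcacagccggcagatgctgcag
The favourable start context ANNATG or GNNATG was present in 7 of the 10 genes, against 85.3% of 9312 tested transcripts that begin with ATG. The fuller forms ANNATGG and GNNATGG were present in 2 (ZNFX1 and LGALS4), against 46.3%. The match was sought on the mRNA strand at the annotated start only. DUXAP10 has no annotated start, and the start of the open reading frame described below was used for it.

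Total reads were 2965243 in wild type, 2555613 in wild type with erythromycin, 604506 in the mutant and 993461 in the mutant with erythromycin, as recovered from the deposited values. The median tested gene held 108, 91, 23 and 40 reads in the same order. With 1 library per group there was no replicate check, and the intervals below are 95% counting intervals that cover counting error only. PCR copies carried no molecular identifiers, so reads are not independent molecules. Of the 7 markers listed for HEK293 cells, 6 were at 1 RPKM or more in every library; VIM, a filament protein, was at 637 to 1100 RPKM. NEFM, a neuronal filament protein, was near 0.

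To place each gene, its margin was taken. This is the log2 difference (RPKM + 1, centred on the median gene) between 1 library and the nearest of the other 3. At a margin of 3 a gene is at least 8-fold above or below every other library. Over all 9612 genes, 30 (0.312%) reached this in some library, and 7 of the 10 genes did; since the genes were chosen on these counts, nothing is read from that share. In wild type 1 gene (0.0104%), CCDC151, was 8-fold above and 4 (0.0416%), none of the 10, were 8-fold below. In the mutant 7 (0.0728%) were above, among them KAT7 and RASD1, and 9 (0.0936%), none of the 10, were below. In the mutant with erythromycin 6 (0.0624%) were above, among them SERPINB10 and GSDMB, and 3 (0.0312%) below, among them DUXAP10 and ZNFX1. In wild type with erythromycin the count was 0 in both directions (0.0%). The sums in the order wild type, wild type with erythromycin, mutant and mutant with erythromycin were 5, 0, 16 and 9. The 2 mutant libraries also had the fewest reads. Reads expected are the mean RPKM of all 4 libraries, scaled to coding length and to the total reads of each library. Among genes with at least 20 reads expected in each library the counts were 3, 0, 1 and 4. The mean behind the expected reads includes the extreme library itself. The part of depth in these counts and in the rest was not tested.

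At a lower bar of 2-fold all 10 genes passed in at least 1 library and direction. In wild type 0.166% of genes were above (CCDC151) and 0.77% below (IGSF22), and in wild type with erythromycin 0.177% above (none of the 10) and 0.395% below (LGALS4). In the mutant 0.874% were above (DUXAP10, ZNFX1, KAT7 and RASD1) and 1.35% below (none of the 10). In the mutant with erythromycin 1.76% were above (SERPINB10, GSDMB, LGALS4 and CREG2) and 0.687% below (DUXAP10 and ZNFX1).

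**Figure D1:**
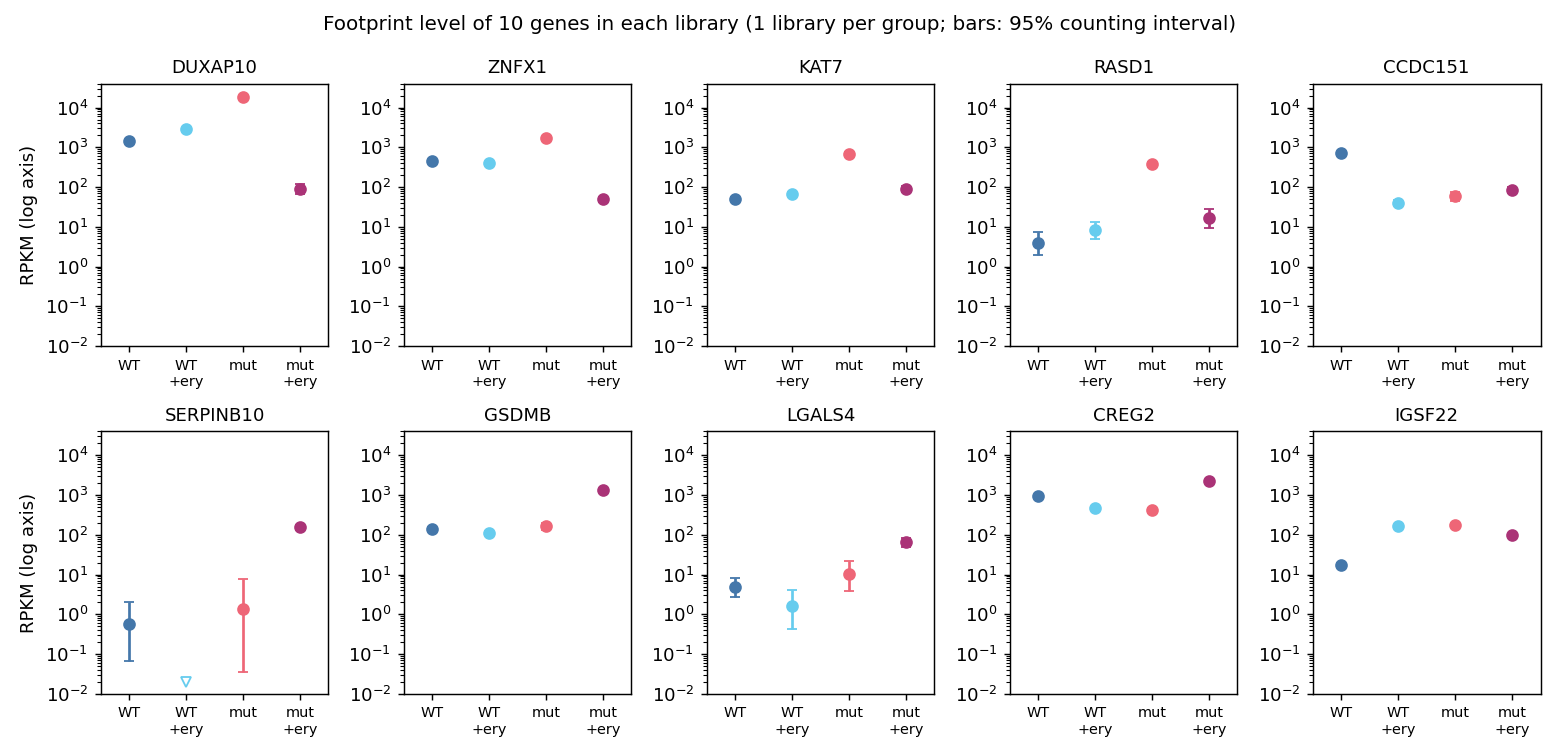
RPKM on a log axis for the 10 genes in the 4 libraries (WT, wild type; mut, RPL4 mutant; +ery, with erythromycin). Points are single libraries and bars are 95% counting intervals; the open triangle marks SERPINB10 where it was not listed and was read as 0. DUXAP10, ZNFX1, KAT7 and RASD1 peak in the mutant, CCDC151 in wild type, and SERPINB10, GSDMB, LGALS4 and CREG2 in the mutant with erythromycin.

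DUXAP10, ZNFX1, KAT7 and RASD1 were highest in the mutant without erythromycin. DUXAP10 is a transcribed pseudogene related to the homeobox gene DUXA and lies on the reverse strand of chromosome 14 (19298697 to 19337669, GRCh38). It was at 1448 RPKM (2718 reads) in wild type, 2836 (4587 reads) in wild type with erythromycin, 18121 (6934 reads) in the mutant and 90.6 (57 reads) in the mutant with erythromycin. All 4 counting intervals lay apart. In the mutant it ranked first of all transcripts by both reads and RPKM, and it took 1.15% of that library (95% Wilson interval 1.12% to 1.17%). In the mutant with erythromycin it ranked 3483rd by reads and took 0.00574%.

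DUXAP10 thus stood out in both directions. It was 2.69 above the next library in the mutant on the log2 scale, and 4.02 [3.65, 4.43] below the nearest library in the mutant with erythromycin, where it had the largest downward margin of the 9612 genes. With erythromycin it was 0.98 [0.92, 1.05] higher in wild type and 7.68 [7.32, 8.10] lower in the mutant, the responses differing by −8.66. Its reads amounted to 32.9 per codon in the mutant, 21.7 and 12.9 in the wild type libraries with and without the drug, and 0.270 in the mutant with it.

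GENCODE 29 gives no coding sequence for this DUXAP10 transcript. The deposited values yield whole reads in all 4 libraries at a length of 633 bases, and the 6120-base transcript holds 1 open reading frame of exactly that length, at bases 2254 to 2886. Its GC content was 72.4%, higher than in 99.2% of tested coding sequences. Within it lie 17 bases identical to 5.8S ribosomal RNA (RNA5-8SN2), on the same strand. The stretch is shown with the shared bases in capitals and 10 bases on each side, because ribosomal RNA is the most abundant RNA in a footprint preparation.
DUXAP10, bases 354 to 370 of the reading frame: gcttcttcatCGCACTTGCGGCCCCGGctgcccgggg
Of 9545 tested coding sequences, 20 (0.210%) held 17 or more bases of a ribosomal RNA in the set searched, on either strand. The set held 5S, 5.8S and the mitochondrial ribosomal RNAs, and 18S and 28S were not analysed here. The match itself came from a wider search of structured RNAs, such as ribosomal, small nuclear and micro RNAs. Against that wider set 24.8% of tested coding sequences held 17 or more bases, among them IGSF22, CCDC151 and RASD1. The match of CCDC151 was longer than that of DUXAP10, at 18 bases of RN7SL353P on the same strand. A match of 18 or more bases was present in 11.1% of tested coding sequences. The 17 bases of DUXAP10 are also shorter than the footprint-sized stretches of 29 bases compared below. Whether reads lie on the 17 shared bases of DUXAP10 was not tested. Up to 264 bases of an exon of the transcript lie opposite the pseudogene BMS1P17, which was not matched to a listed value.

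ZNFX1 (chromosome 20, 49245900 to 49278219, reverse strand) encodes a helicase with NFX1-type zinc fingers that takes part in antiviral defence. Its level was 459 RPKM (7838 reads) in wild type, 404 (5943) in wild type with erythromycin, 1727 (6010) in the mutant and 48.8 (279) in the mutant with erythromycin. This is the same order of extremes as for DUXAP10, and again the 4 intervals did not overlap. The wild type libraries lay close together, at a log2 difference of −0.17 [−0.22, −0.12]. The mutant was 1.93 [1.89, 1.99] above untreated wild type, and with erythromycin the mutant was 3.09 [2.94, 3.29] below wild type; this margin was 2.98 with a pseudocount of 5 RPKM, just short of 8-fold. ZNFX1 took 0.994% of the reads of the mutant library and 0.0281% of the library with erythromycin.

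KAT7 and RASD1 were high in the mutant and low in the other 3 libraries. KAT7 (chromosome 17, 49788555 to 49835030, forward strand) is a histone acetyltransferase of the MYST family. It was at 50.9 RPKM (277 reads) in wild type, 68.6 (322) in wild type with erythromycin, 697 (774) in the mutant and 89.4 (163) in the mutant with erythromycin. The margin of 3.003 [2.77, 3.27] over the mutant with erythromycin sits at the 8-fold line and was 2.95 without centring. The intervals of wild type with erythromycin and mutant with erythromycin overlapped.

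RASD1 (chromosome 17, 17494437 to 17496393, reverse strand), a small GTPase induced by glucocorticoids, was at 3.99 RPKM (10 reads) in wild type, 8.33 (18) in wild type with erythromycin, 379 (194) in the mutant and 16.7 (14) in the mutant with erythromycin. The margin was 4.48 [3.78, 5.46], the second largest upward margin in the mutant after MTRNR2L5 (4.54), which rests on 1 read against 0 in the other libraries and is named here after its value was seen. The other 3 libraries held 10 to 18 reads each; the intervals of neighbours in their order overlapped, while those of wild type and the mutant with erythromycin did not. RASD1 carries 20 bases identical to the microRNA hairpin MIR3960 on the same strand, a GC-rich repeat, shown with the shared bases in capitals because it was the longest match of the 10 genes to a structured RNA.
RASD1, bases 691 to 710 of the coding sequence: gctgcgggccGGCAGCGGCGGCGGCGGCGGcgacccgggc
A match of 20 or more bases to a structured RNA was present in 3.54% of tested coding sequences.

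CCDC151 and IGSF22 were extreme in wild type without erythromycin. CCDC151 (chromosome 19, 11420604 to 11435104, reverse strand) encodes a coiled-coil protein that docks the outer dynein arms of motile cilia. It was at 724 RPKM (3837 reads) in wild type, 40.5 (185) in wild type with erythromycin, 58.3 (63) in the mutant and 85.0 (151) in the mutant with erythromycin. CCDC151 was the 1 gene of 9612 at least 8-fold above every other library there, with a margin of 3.11 [2.89, 3.37]. Among the low libraries the interval of the mutant overlapped both of the others. The 8 markers of multiciliated cells summed to 7.002 RPKM in wild type and 5.71 to 18.9 in the other libraries. Their master regulator FOXJ1 was not listed in any library but the mutant with erythromycin, which had 2 reads.

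IGSF22 (chromosome 11, 18704305 to 18726180, reverse strand), an immunoglobulin-domain protein, showed the reverse pattern. It was at 17.5 RPKM (207 reads) in wild type, 163 (1655) in wild type with erythromycin, 177 (425) in the mutant and 97.1 (384) in the mutant with erythromycin. The low wild type library stood 2.37 [2.19, 2.69] below the nearest of the others. The 2 highest libraries, wild type with erythromycin and the mutant, had overlapping intervals. Up to 71 bases of its coding exons lie opposite an exon of TMEM86A, which was at 4.33 to 5.57 RPKM, and up to 236 lie opposite the antisense gene AC103974.1. The sources used here do not say whether strand was used in counting.

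SERPINB10, GSDMB, CREG2 and LGALS4 were highest in the mutant with erythromycin. SERPINB10 (chromosome 18, 63907991 to 63936111, forward strand), a protease inhibitor of the clade B serpins best known from blood-forming cells, was nearly silent elsewhere. It had 2 reads (0.565 RPKM) in wild type, 0 in wild type with erythromycin, 1 (1.39 RPKM) in the mutant and 186 (157 RPKM) in the mutant with erythromycin. Its margin of 5.99 [4.27, 12.1] was the largest of the 9612 genes in that library. SERPINB10 is among these genes only through its level there, so the rank rests on the same value as the filter. SERPINB10 was absent from the values of wild type with erythromycin. There the 95% counting interval of a count of 0 reaches up to 3.69 reads (1.21 RPKM, counting error only). The 8 blood and myeloid markers summed to 3.20 RPKM in this library and to 3.23, 3.75 and 5.01 in the others; in this library the whole sum was ITGAM, an integrin, at 3.20 RPKM (11 reads) against 0.956 to 1.36 in the others. MPO had 1 read in wild type with erythromycin and 0 elsewhere, and the part of such cells in the result was not tested.

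GSDMB (chromosome 17, 39904597 to 39918650, reverse strand) belongs to the gasdermins, which form membrane pores in inflammatory cell death. It was at 140 RPKM (521 reads) in wild type, 113 (362) in wild type with erythromycin, 163 (123) in the mutant and 1365 (1696) in the mutant with erythromycin. The first 3 libraries lay within 0.53 of each other on the log2 scale, and the last was 3.01 [2.75, 3.29] above the nearest (2.98 when scaled by the trimmed mean of M values). GSDMB took 0.171% of reads there and 0.0142% to 0.0203% in the others.

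CREG2 (chromosome 2, 101345551 to 101387595, reverse strand), a secreted glycoprotein known from brain, was abundant in every library. Its level was 967 RPKM (2504 reads) in wild type, 484 (1080) in wild type with erythromycin, 415 (219) in the mutant and 2262 (1962) in the mutant with erythromycin. The intervals of wild type with erythromycin and the mutant overlapped. The margin was 1.19 [1.11, 1.28], the smallest of the 10, and 169 genes were at least 2-fold above every other library there. The erythromycin response was −0.98 [−1.09, −0.88] in wild type and 2.39 [2.19, 2.60] in the mutant. The 8 neuronal markers summed to 36.0, 48.4, 32.3 and 47.9 RPKM in the 4 libraries, which is not the order of CREG2.

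LGALS4 (chromosome 19, 38801679 to 38813364, reverse strand), a galectin of gut epithelium, had the fewest reads of the 10 over the 4 libraries. It held 14 reads (4.86 RPKM) in wild type, 4 (1.61) in wild type with erythromycin, 6 (10.2) in the mutant and 63 (65.2) in the mutant with erythromycin. The margin was 2.51 [1.42, 4.12], and the intervals of neighbours among the 3 low libraries overlapped. Of 8 intestinal markers 3 were found, and nearly all of their signal was CDX2 (9.31 to 21.1 RPKM); KRT20 and CDH17 had at most 1 read in any library.

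**Figure D2:**
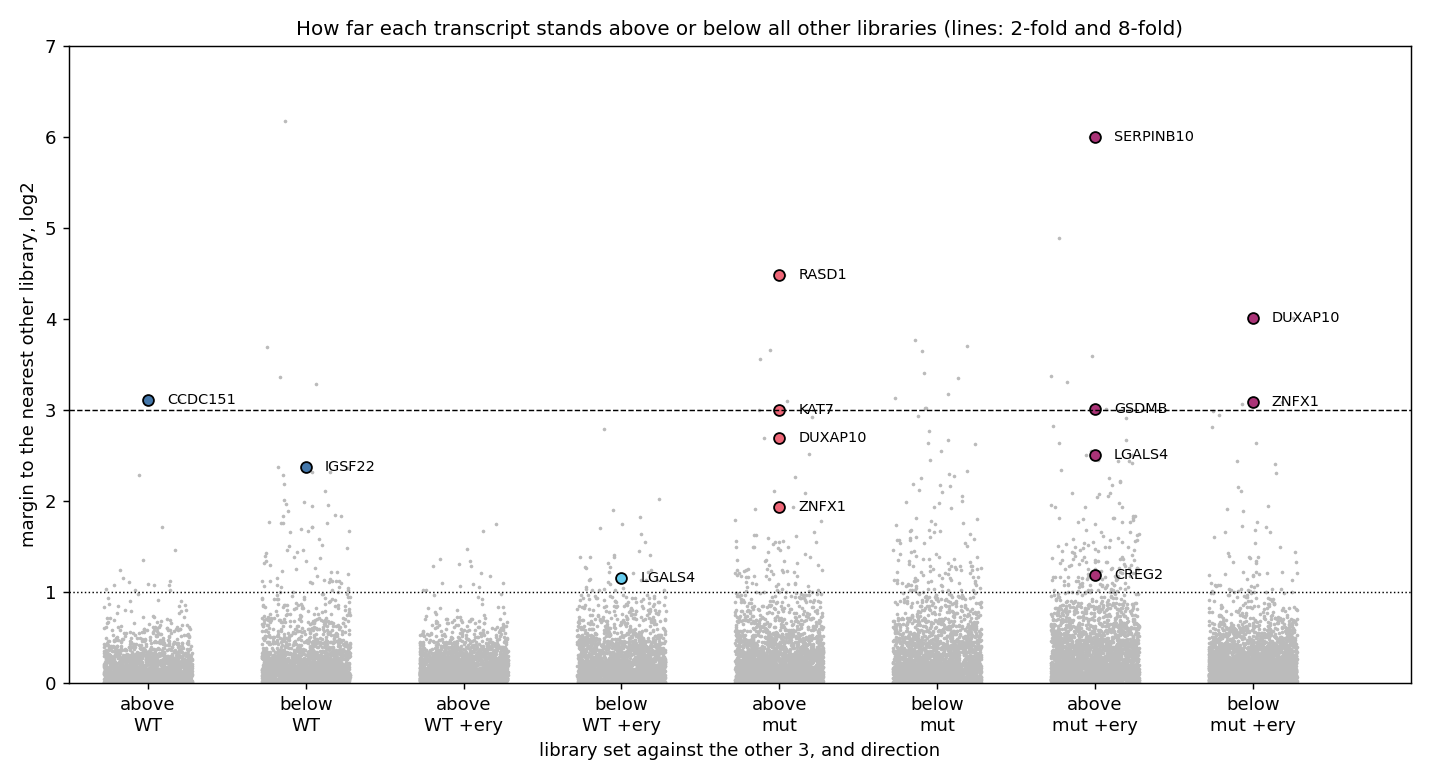
Margin of each of the 9612 tested transcripts (grey points, log2; only values above 0 are drawn) for each library and direction, with the 10 genes as labelled dots where they pass 2-fold. The dashed line is 8-fold, passed by CCDC151, RASD1, KAT7, SERPINB10, GSDMB, DUXAP10 and ZNFX1.

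The single comparisons of the design share libraries, so the counts below are not independent. With erythromycin in the mutant, 4 of the 10 genes were past 2-fold on the high side (6.22% of all genes were) and 4 on the low side (3.39%). In wild type 1 was higher (IGSF22) and 2 lower (CCDC151 and LGALS4), against 1.73% and 1.54%. Between mutant and wild type without the drug 5 were higher and 2 lower (5.29% and 3.32%), and with the drug 4 were higher and 2 lower (7.02% and 2.26%). These contrasts chose the genes, and nothing is read from the shares. For LGALS4 in wild type, 14 against 4 reads gave −1.15 [−3.64, 0.09], an interval that includes 0.

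Together the 10 genes took 0.605% of reads (0.596% to 0.613%) in wild type, 0.554% in wild type with erythromycin, 2.44% (2.40% to 2.48%) in the mutant and 0.499% in the mutant with erythromycin. DUXAP10 and ZNFX1 made up most of the mutant share and were both among its 20 most-read transcripts. None of the 10 was among the 20 most-read of the other 3 libraries.

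**Figure D3:**
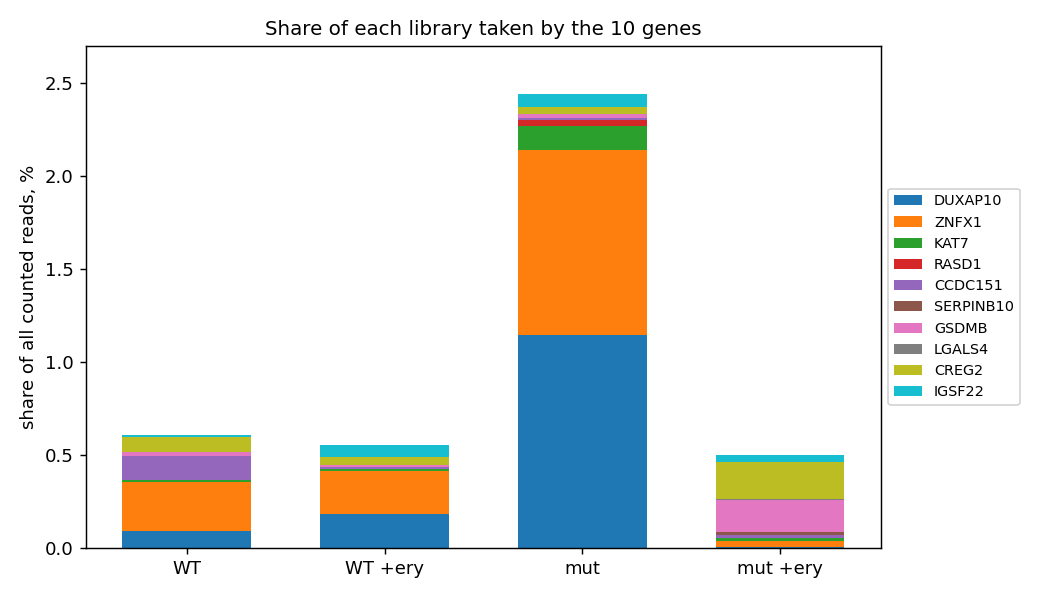
Share of all counted reads, in percent, taken by each of the 10 genes in each library, stacked. The mutant reaches 2.44%, of which DUXAP10 is 1.15% and ZNFX1 0.994%; the other libraries lie between 0.499% and 0.605%.

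Relatives and partners of the 10 genes were listed by family or complex and not by their values. Of 95 listed family and partner genes, 72 were found and 36 had a mean of at least 5 RPKM. In the libraries and directions concerned, 0.166% to 1.76% of all tested genes passed 2-fold. Among the 36 relatives and partners, 1 passed 2-fold in the direction and library of its relative, and 0 passed 8-fold. That gene was GSDMC, another gasdermin, at 29.2, 45.9, 33.6 and 132 RPKM (132, 179, 31 and 200 reads) in the order wild type, wild type with erythromycin, mutant and mutant with erythromycin. Its margin of 1.44 in the mutant with erythromycin compares with 3.01 for GSDMB, and the 2 genes shared no 29-base stretch on the same strand. GSDME, also a gasdermin, was at −1.07.

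In the other families no tested gene passed 2-fold with its relative. For KAT7, 12 partners and MYST relatives were tested, with margins in the mutant of −0.94 (KAT8) to 0.54 (ING4, a reader subunit of its complexes), and BRPF1 and MEAF6, further subunits, were at 0.03 and 0.01. For ZNFX1, 8 helicases and RNA decay factors were at −0.99 (MOV10) to 0.39 (AQR), with UPF1 of nonsense-mediated decay at 0.13. Of 4 small GTPases related to RASD1, RASL10B and DIRAS1 were at 0.53 and −0.55, and RASL11A and RASL11B at −1.61 and −3.80; RASL11B had 0 reads in the mutant and 10 to 14 elsewhere. IGSF3 and IGSF8, immunoglobulin-domain proteins like IGSF22, were at 0.30 and −0.22 in the direction below in wild type. CREG1, the relative of CREG2, was at 82.0 to 97.3 RPKM. SERPINB6 and SERPINB1 were at −0.06 and −0.65 where SERPINB10 was at 5.99. Galectins LGALS1, LGALS8 and LGALS3 were at 0.13, −0.54 and −1.69. For CCDC151 the dynein chain gene DNAL1 and the dynein assembly factor gene DNAAF2 were at 0.25 and −0.32. The docking partners of CCDC151 were below the mean of 5 RPKM. Of these, ARMC4 was at 4.73 RPKM (44 reads) in wild type and 1.93 to 2.25 (4 to 18 reads) elsewhere, an untested margin of 0.81 in the library and direction of CCDC151, and CCDC114 and TTC25 held 0 to 10 reads in every library.

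Of the 19 nearest listed genes on the chromosome 10 were tested, and their margins in the library and direction of the member ran from −0.56 to 0.03. Below the mean of 5 RPKM, DLX4, next to KAT7, was at 1.39 on 5 reads in the mutant against 0 to 8 elsewhere. ORMDL3, beside GSDMB, was at 121, 141, 150 and 159 RPKM, and PRKCSH, 531 bases from CCDC151, at 131, 156, 114 and 110. DDX27, 1825 bases from ZNFX1, was at 41.7, 55.5, 36.0 and 42.5.

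**Figure D4:**
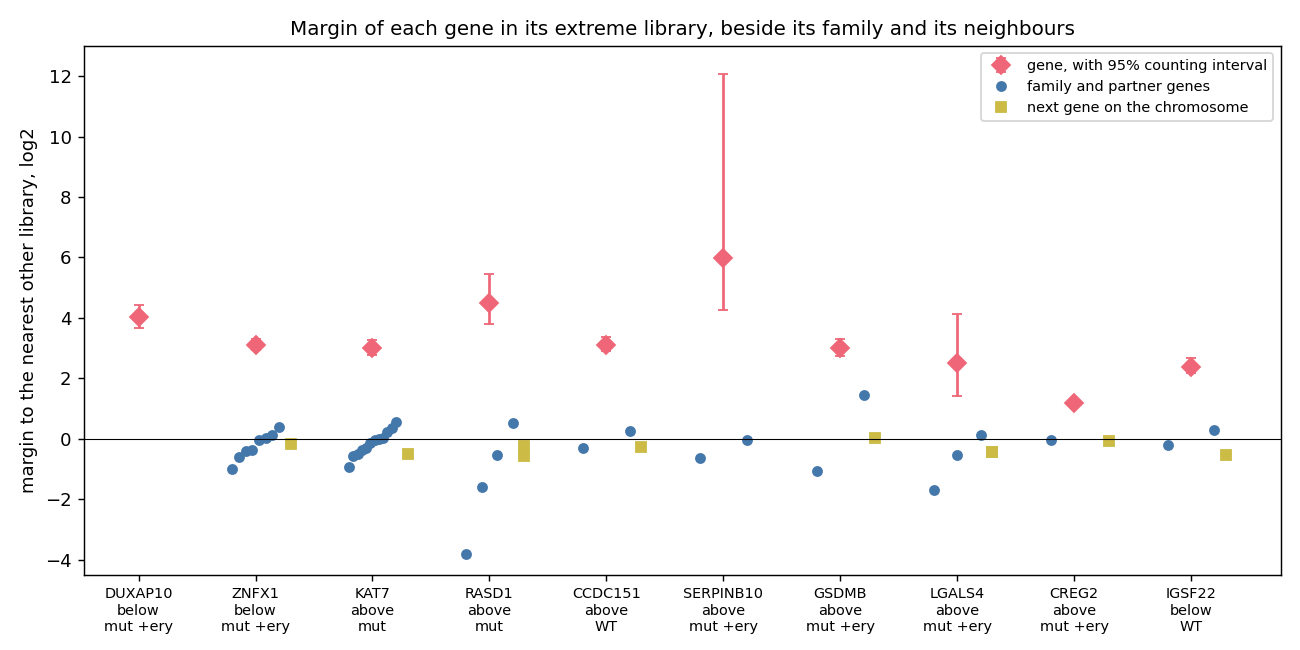
Margin (log2) of each gene in its most extreme library and direction (diamonds, with 95% counting intervals), beside its tested family and partner genes (circles) and the tested next gene on either side of the chromosome (squares). GSDMC, at 1.44, is the one circle above 1; the squares lie between −0.56 and 0.03.

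Sequence features were compared next. Coding lengths ran from 633 bases (DUXAP10) to 5757 (ZNFX1), around a median of 1311 for tested genes. GC content ran from 41.7% (SERPINB10) to 72.4% (DUXAP10), around 52.2%. Footprint-sized stretches of 29 bases also found, on the same strand, in another annotated gene were absent from 9 of the 10. The exception was KAT7, in which 25.3% of such stretches were shared with AL137845.2, more than in 86.8% of tested coding sequences. Over all tested coding sequences 39.7% held at least 1 shared stretch. The longest run common to any 2 of the 10 genes, on either strand, was 14 bases (KAT7 and SERPINB10). Copies outside annotated transcripts, and 29-base stretches shared with the opposite strand of another gene, were not analysed here.

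Other genes extreme in the same library and direction were taken as the 3 with the largest margin among those with a mean of at least 20 RPKM. They were ranked by that margin only and need not follow the 10 genes in the remaining libraries. Beside CCDC151 in wild type stood HIVEP3, a zinc-finger transcription factor (margin 1.71; 5319 reads in wild type and 125 to 1371 elsewhere). Beside IGSF22 stood DBP, a clock-controlled transcription factor, and ITGB2, an integrin of white blood cells (6.17 and 3.36 below). Beside DUXAP10, ZNFX1, KAT7 and RASD1 in the mutant stood NUP188, a nuclear pore scaffold protein (2.11; 139 RPKM against 28.1 to 32.1), and UBTD2 (2.08). Beside SERPINB10 and GSDMB in the mutant with erythromycin stood GDF2, a ligand of the BMP family (3.37; 717 reads against 27 to 110), ASB11 (2.83) and GKAP1 (2.67). BBIP1, a subunit of the BBSome of cilia, was next to DUXAP10 and ZNFX1 on the low side of that library (1.89), on 2 reads against 5 to 32. In wild type with erythromycin, where none of the 10 was highest, HASPIN, a histone H3 kinase, led at 1.74 with 440 RPKM against 89.6 to 136.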

How the data were processed

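The authors deposited 1 RPKM value per transcript and library, and transcripts not listed were read as 0. Per the submitters' processing notes, cutadapt, STAR and the GRCh38 build were used; for tool versions, read counter, annotation release and strand the entry is: not given in the sources used here. Of 16292 transcripts, 16172 were matched to GENCODE 29; for 243 the length was solved from the values. RPKM times coding length with the stop codon gave whole reads, within 0.001, for 99.2% of transcripts with an annotated length in each library, which also gave the library totals. Analysis used Python 3.11.15 with scipy 1.17.1: log2(RPKM + 1), a mean of at least 5 RPKM, each ratio centred on the median gene. A fold on this scale understates the change of low genes. Counting intervals are exact Poisson (levels), conditional exact binomial (ratios, without the added 1) and Wilson (shares). The margin calculation was run on simulated counts with known changes and counting error only, without PCR copies or read pile-up. Samples were grouped by title; 4 comparisons and 10 alternatives were computed. The trimmed mean of M values was computed here directly. The 10 genes and all lists were chosen with earlier results of these data known. The named genes are the 10, their relatives and next genes on the chromosome, and the 3 largest margins per library and direction.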

Additional observations from a re-analysis of the deposited data

Results flagged for a closer look

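LGALS4 moved at least 2-fold in opposite directions with erythromycin in the 2 genotypes, by −1.15 in wild type (14 and 4 reads) and 2.51 in the mutant (6 and 63 reads), on the log2 scale. The responses differed by 3.66. With 1 library per group this difference was not tested, and the wild type interval includes 0. Opposite signs were not particular to LGALS4: each of the 10 genes but ZNFX1 had them. LGALS4 alone passed 2-fold in both genotypes. The responses differed by more in other genes, such as DUXAP10 (−8.66) and SERPINB10 (6.63).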

How the results depend on the processing

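No paired analysis was possible because each group has 1 library and nothing in the labels links libraries; for the same reason no library could be left out. The number of the 10 genes past 8-fold was 7, and 4 to 9 under the 10 alternatives, with CCDC151, DUXAP10, RASD1 and SERPINB10 past it under each. It was lowest with a pseudocount of 5 RPKM and highest against the median of the other 3 libraries. KAT7, GSDMB and ZNFX1, which lie at the line, fell below it under some. The filters on mean level and on expected reads include the extreme library itself. Outside its high library SERPINB10 was at 0 to 1.39 RPKM and RASD1 at 3.99 to 16.7 RPKM. Both met the raised minimum mean and the minimum of expected reads only through that library. Passing under those filters is therefore no separate check for SERPINB10 and RASD1. Of 60 recomputed margins of the 10 genes 7 left their counting interval and 0 changed sign. Nothing is read from the 0, since the genes were chosen on these counts and the smallest margin was 1.19. Depth limits LGALS4, RASD1 and SERPINB10, which rest on few reads outside 1 library.

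Counts over all genes moved with the filter and pseudocount. Genes at least 8-fold apart (5, 0, 16 and 9 in wild type, wild type with erythromycin, mutant, mutant with erythromycin) were 11, 4, 31 and 18 with a pseudocount of 0.1 RPKM, and 2, 0, 1 and 3 with 5 RPKM. They were 21, 9, 38 and 41 against the median of the other 3 libraries. In the mutant and the mutant with erythromycin a minimum mean of 20 RPKM gave 1 and 4. In wild type, mutant and mutant with erythromycin a minimum of 20 expected reads gave 3, 1 and 4. In the mutant with erythromycin they were 15 at a minimum mean of 1 RPKM and 15 with no filter. Genes at least 2-fold higher and lower follow in the order erythromycin in wild type, erythromycin in the mutant, mutant without the drug and mutant with it. They were 166 and 148, 598 and 326, 508 and 319, 675 and 217. With a pseudocount of 5 RPKM they were 72 and 42, 315 and 162, 270 and 139, 357 and 100. With a minimum mean of 1 RPKM they were 362 and 335, 1198 and 783, 1120 and 740, 1184 and 487. With no filter they were 453 and 472, 1801 and 1121, 1513 and 945, 1562 and 656. With a minimum mean of 20 RPKM they were 65 and 42, 184 and 82, 179 and 75, 263 and 47. With at least 20 reads expected they were 44 and 24, 140 and 44, 159 and 45, 268 and 30. These filters test fewer or more genes by construction. By its definition, the median of the other 3 libraries can only raise a margin or leave it unchanged. A larger pseudocount shrinks the ratios of low genes most. Other causes of these shifts were not tested.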
